A study of Homo sapiens with 9 samples.

Results

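The baseline transcriptome of HEK293T cells was described from the 3 libraries that received a control siRNA, out of 9 libraries in the study, which used siRNAs to lower SIN3A or SIN3B. The 3 libraries were chosen by their labels alone, as the columns of the count table named for the control, and no groups were compared. HEK293T is a human embryonic kidney line that was transformed with adenovirus DNA and carries the SV40 large T antigen, so every value below belongs to cells in which viral proteins bind cellular growth regulators such as RB. The viral transcripts were not analysed here. The cells were grown in DMEM with fetal bovine serum, transfected with 10 nM control siRNA by Lipofectamine RNAiMAX, and collected 36 h later. RNA was extracted with TRIzol and treated with DNase I, and the libraries were poly-A selected and stranded. The labels do not say whether the replicates were separate cultures, so the spread between them may be technical. All cells here carried an siRNA and a transfection reagent, and untreated cells were not analysed here. Of the 58734 genes in the count table, 13583 were expressed in the control libraries, where expressed means at least 1 CPM (the count scaled to a library total of 1000000) in each of the 3.

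SIN3A and SIN3B are scaffold proteins without enzymatic activity of their own. They hold class I histone deacetylases next to sequence-specific repressors, and so help to silence the genes those repressors bind. Many chromatin complexes exist in alternative forms in which paralogs replace each other, and a cell line is therefore partly defined by which paralog of each pair it expresses. HEK293T is widely used to study such complexes because it transfects well, while its cell of origin within the embryonic kidney or adjoining tissue has long been debated.

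The libraries held 22618948 to 25484239 counts, so that 1 CPM stood for 22.6 to 25.5 counts. Between 98.3% and 98.5% of the counts above 0 were whole multiples of 4, and a step of 4 was therefore taken as 1 observation. With 3 such observations as the limit, a gene with under 12 counts in a library (0.471 to 0.531 CPM) was treated as not distinguishable from 0. A chi-square test of counts divided by 4 gave 1.61 to 1.93 per degree of freedom for the pairs of libraries, above the 1 of counting noise alone, so none was counted as a copy of another. At most 1 of the 9725 genes at or above 10 CPM differed by over 2-fold between any pair of libraries, and 23 or 24 differed by over 1.5-fold. The median coefficient of variation (SD over mean) was 5.79% over 9724 genes at this level. It was 27.5% for genes of 1 to 3 CPM and 2.84% for genes of 1000 CPM or more. Counting error alone, in steps of 4, would give medians of 30.6% and 1.05% at these levels.

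Among 19951 protein-coding genes, 12230 (61.3%) were expressed and 9475 (47.5%) reached 10 CPM in every library, which are the shares against which each gene group below is read. A further 4729 protein-coding genes had no count in any library. Only 1353 of 38783 other genes (3.49%) were expressed. Levels of different genes were compared as TPM, a transcript abundance that divides each count by the length of the principal transcript in GENCODE 29 before scaling. Expressed protein-coding genes had a median of 19.3 TPM, with quartiles at 6.86 and 49.6 TPM and a 90th percentile of 114 TPM. Over all protein-coding genes the median was 4.81 TPM.

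**Figure D1:**
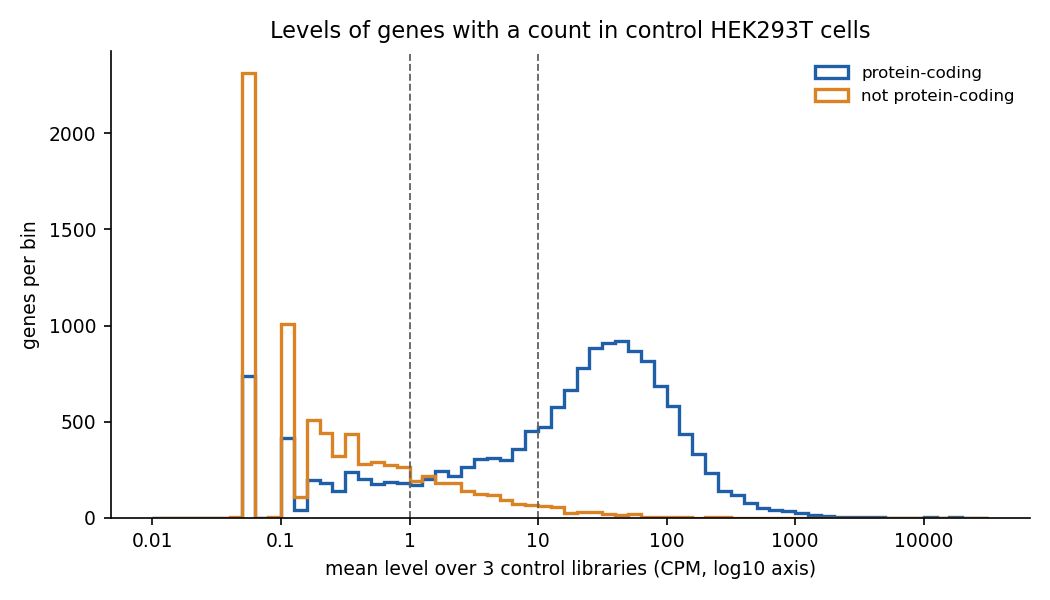
Number of genes per bin of mean level over the 3 control libraries, in CPM on a log axis, for protein-coding genes and all others, leaving out chromosome Y and genes without a count. Dashed lines mark 1 and 10 CPM. The protein-coding genes form a broad peak above 10 CPM, while most other genes lie below 1 CPM.

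A small number of genes took much of each library. The 100 highest genes held 23.4%, 24.2% and 23.5% of the counts in replicates 1, 2 and 3, and 877 to 923 genes were enough to reach 50% of them. All genes of the mitochondrial genome together held 9.65%, 10.3% and 9.52%. Its 13 protein-coding genes, which encode subunits of the respiratory chain, held a mean of 8.94% (SD 0.47). MT-CO1, the largest subunit of cytochrome c oxidase, was the highest gene by CPM, with 16912, 17982 and 17286 CPM. Per length the order changed, and MT-CO2, another subunit of the same enzyme, led with 32439, 34466 and 31451 TPM, followed by MT-CO3 at 29619 ± 1708 TPM (SD, n = 3) and MT-ATP6 at 25525 ± 1495 TPM. Replicate 2 was the highest library for each of these mitochondrial transcripts and for the mitochondrial share. MTATP6P1, a nuclear copy of a mitochondrial gene on chromosome 1, had 1833 ± 93 CPM, a value that is uncertain because reads of near-identical copies can be assigned to either.

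Of the nuclear genes, those of the protein synthesis machinery came first. RPS2, a protein of the small ribosomal subunit, had 9104, 8960 and 9294 TPM. It was followed by RPS4X (5454 ± 100 TPM) and RPL8 (5292 ± 105 TPM). Cytosolic ribosomal proteins together took 7.6% to 7.89% of the counts, and 84 of their 86 genes were expressed. Further ribosomal genes among the 15 highest nuclear genes per length were RPS6, RPL35, RPS24, RPL7A, RPL12, RPL5, RPS18, RPS15 and RPL19, between 3557 and 4333 TPM. RACK1, a scaffold on the small subunit, had 3661 ± 110 TPM. By CPM, the elongation factors EEF2 (4217 ± 165 CPM) and EEF1A1 (3674 ± 113 CPM) also ranked among the 15 highest. RPS2P5, a processed copy of RPS2 on chromosome 12, was listed at 230 ± 9.2 CPM and is uncertain for the same reason as the mitochondrial copy.

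Genes of glycolysis, the cytoskeleton and chaperones were also high. GAPDH, a glycolytic enzyme, had 4503, 4364 and 4780 TPM and was the only gene of a protein outside the ribosome among the 15 highest nuclear genes per length. ENO1 and PKM, later enzymes of the same pathway, had 2561 ± 79 and 1639 ± 17 TPM. The actins ACTG1 and ACTB were close, at 2008 ± 11 and 1922 ± 48 TPM, and the libraries of one did not overlap those of the other. TUBB, a beta tubulin, had 1928 ± 37 TPM. The chaperones HSPA8 and HSP90AB1 had 1695 ± 104 and 1456 ± 42 TPM, with replicate 2 highest for both.

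Of the highest genes 3 had the letters of a TATA box before their start, and these core promoters are shown because the other windows of that class lacked the motif. Promoter windows came from RefSeq (GRCh38.p14) and ran from 250 bases before to 50 bases after the transcription start, and 15467 of 19893 protein-coding genes outside chromosome Y and the mitochondrial genome were matched to one. The motif TATAAA was searched on the gene's strand, starting 20 to 40 bases before the start. The windows of the following genes are printed 5′ to 3′ from 45 to 16 bases before the start, with the motif in capitals.
EEF2: caaccggcgtccgccTATAAAaagctgagt
CALR: tgagaggcgggtgggTATAAAagtgcaagg
PPIA: ggggccgaacgtggTATAAAaggggcggga
The EEF2 window lies at chr19:3985479-3985508 on the minus strand, that of CALR, a chaperone of the endoplasmic reticulum, at chr19:12938564-12938593 on the plus strand, and that of PPIA, cyclophilin A, at chr7:44796636-44796665 on the plus strand. CALR had 1038 ± 73 CPM and PPIA 1019 ± 28 CPM. These were the only 3 matches among the 57 genes at or above 1000 CPM that had a window, a share of 5.26%. Among genes of 10 to 100 CPM the motif was found in 56 of 6099 windows (0.918%), among those of 100 to 1000 CPM in 31 of 1731 (1.79%), and over all matched windows in 568 (3.67%). Most of these 568 matches lay outside the 3 classes, so no rise with level is read from the shares. A ratio of observed to expected CpG above 0.6 was found in 88.1%, 92.3% and 96.5% of the windows in these 3 classes from low to high, and in 66.5% of all matched windows. The shares over all matched windows are given for reference only, because these cover 77.8% of the genes, under the 80% required of a class. GGGCGG, on either strand, was found in 73.6%, 74.8% and 70.2%, and in 59.1% of all matched windows. CCAAT, on either strand, was found in 36.4%, 41.1% and 47.4%, and in 36.6% of all matched windows. Genes sharing over 25% of their principal transcript with another gene on the same strand were left out of these classes but kept among all matched windows. For classes below 10 CPM fewer than 80% of the genes had a window (74.8% of those with no count), so the comparison was void there and is not given. Olfactory receptors had a window in 80.3% of cases, and the ratio of observed to expected CpG exceeded 0.6 in 1.96% of these. None of the 381 olfactory receptor genes was expressed, and 371 had no count.

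Kidney markers were described from the embryonic organ to its mature segments. Of 12 regulators of nephron progenitors, 9 (75%) were expressed, and 4 (33.3%) reached 10 CPM. SIX2, which keeps nephron progenitors from differentiating, had 26.2, 31.9 and 31.9 TPM. Its coactivator EYA1 had 13, 10.5 and 10.9 TPM. SALL1, a zinc-finger factor required for kidney outgrowth, had 17.9, 17.7 and 17.1 TPM. All of these lay well inside the range of expressed genes, with SIX2 at the 62.4th and EYA1 at the 36.5th percentile of expressed protein-coding genes. PAX2, another early kidney regulator, was lower, at 1.69, 2.53 and 1.93 TPM. PAX8, which acts beside PAX2, had a count in replicate 2 only and stayed under the 12-count limit there.

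Markers of differentiated nephron segments followed. In the podocyte list 3 of 6 genes passed. NPHS1, which encodes the slit diaphragm protein nephrin, was not expressed, although PODXL, a surface mucin of podocytes that other cells make too, had 39.8, 35.9 and 35.3 TPM. In the proximal tubule list 3 of 10 genes were expressed. LRP2, the endocytic receptor megalin, had 3.67, 3.77 and 3.78 TPM, while the transporters SLC34A1, SLC22A6 and SLC22A8 had no count. None of 6 genes of the loop and distal tubule passed, and UMOD, SLC12A1 and SLC12A3 had no count. For the collecting duct 1 of 9 passed, the water channel AQP3, at 6.09, 5.98 and 6.46 TPM, and AQP2 had no count. The median of the nephron progenitor list, 2.22 TPM, was below the 4.81 TPM of all protein-coding genes, and the medians of the podocyte and proximal tubule lists were 0.461 and 0.159 TPM.

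Adrenal markers were described because the adrenal gland adjoins the kidney. No gene of a list of 10 for the adrenal cortex was expressed, and the steroid enzymes CYP11A1, CYP21A2, CYP11B1 and CYP11B2 had no count. Of 14 genes of chromaffin and sympathoadrenal cells 4 were expressed. They were GATA3 (10.3 ± 1 TPM), INSM1 (5.04 ± 1.6 TPM), CHGA (3.05 ± 0.63 TPM) and HAND2 (2.94 ± 0.7 TPM). The catecholamine enzymes TH and DBH, the regulator PHOX2A, and the vesicle transporters SLC18A1 and SLC18A2 had no count. In a single library, a count of 0 allows up to 12 counts within counting error.

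Several neuronal genes were high. Of 21 genes 13 (61.9%) were expressed, a share near that of all protein-coding genes. The list median was 3.27 TPM, below the 4.81 TPM of all protein-coding genes. UCHL1, a ubiquitin hydrolase abundant in neurons, had 375, 402 and 376 TPM, at the 97.7th percentile of expressed genes. The medium neurofilament NEFM had 162, 140 and 172 TPM, the light chain NEFL had 50.5, 48.5 and 54.4 TPM, and the related filament INA had 45.2, 44.4 and 46.1 TPM. ENO2, the neuronal enolase, had 57, 50.2 and 61.2 TPM, and SYP, a synaptic vesicle protein, had 40.6, 31.5 and 36 TPM. Other defining genes of neurons stayed below 1 CPM in every library, among them DCX, SNAP25, STMN2 and ELAVL3, and ELAVL4 had no count. TUBB3 was listed at 0.161, 0 and 0.177 CPM, but 89.5% of its principal transcript is shared with another gene on the same strand, AC092143.1. Of genes with 50 to 90% shared, 32.3% were expressed and 35.7% had no count, so the TUBB3 level is uncertain. Such overlaps are described below. Of 6 neural progenitor genes 4 were expressed, with MSI1 at 31 ± 1.9 TPM, PAX6 at 11.5 ± 0.6 TPM and SOX2 at 4.64 ± 0.27 TPM, while SOX1 and FABP7 had no count.

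Of 16 epithelial genes 8 (50%) and of 17 mesenchymal and fibroblast genes 11 (64.7%) were expressed, shares near or below that of all protein-coding genes. The simple keratins KRT18 and KRT8 had 98.7 ± 4.2 and 20.4 ± 1.9 TPM, and the only other member of the 55 keratin genes that was expressed was KRT10 (10.8 ± 1.2 TPM). KRT7 and KRT19 had no count. CDH1, the cadherin of epithelia, had 4.8, 4.83 and 4.29 TPM. CDH2, the neural and mesenchymal cadherin, had 41.6, 40.3 and 39.3 TPM, above CDH1 in every library. VIM, the mesenchymal intermediate filament, was the highest member of the cell type marker lists at 727, 700 and 767 TPM. ESRP2, a splicing factor of epithelia, had 21.7 ± 0.73 TPM while its paralog ESRP1 had no count. The fibroblast collagens were uneven, with COL1A1 at 7.15 ± 0.36 TPM and COL1A2 at no count, and DCN likewise had none.

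Markers of unrelated lineages were rare. None of 7 endothelial and 8 hepatocyte genes was expressed, 1 of 10 haematopoietic genes was, and 1 of 7 muscle genes was (ACTN2, 6.65 ± 1 TPM). Of 6 glial genes 2 were expressed, OLIG2 at 6.26 ± 0.73 and MBP at 3.7 ± 0.32 TPM, and SOX10 and S100B had no count. With a threshold of 0.5 CPM the haematopoietic count became 3 of 10 and the muscle count 2 of 7. In the pluripotency list POU5F1, NANOG and LIN28A had no count, and LIN28B, a regulator of let-7 processing, had 28.5, 23.1 and 23.5 TPM. Among 13 germline and cancer-testis genes PRAME was the 1 expressed gene, at 32.1, 34.5 and 31.6 TPM. The summed level of the haematopoietic list was 4.07 to 5.64 CPM per library and that of the endothelial list 0.157 to 1.13 CPM.

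**Figure D2:**
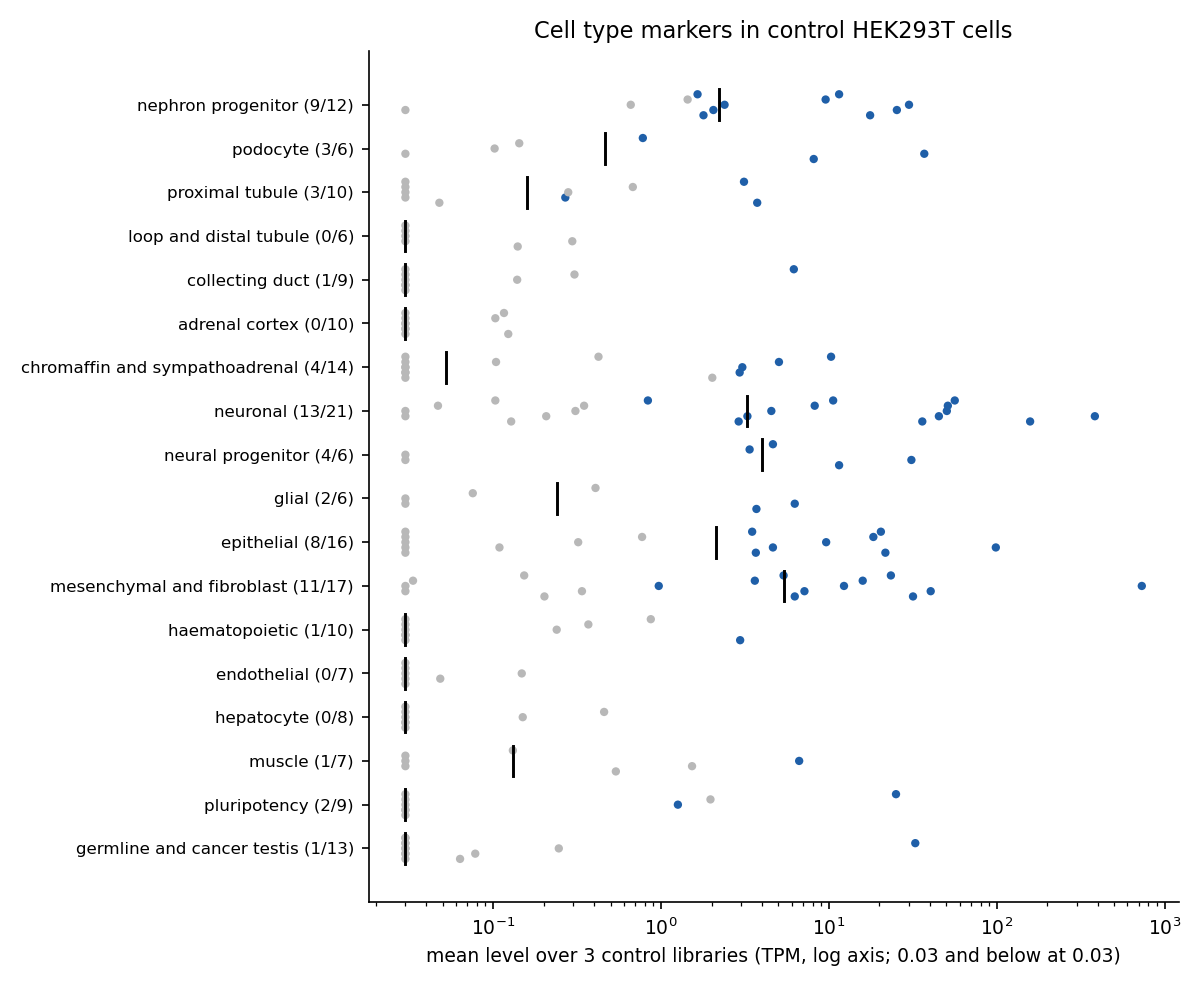
Mean level of each marker gene over the 3 control libraries, in TPM on a log axis, by list. Blue points are expressed genes, grey points are not, black bars are list medians, and the numbers in brackets are expressed genes over list size. Nephron progenitor, neuronal and mesenchymal lists hold the most blue points, but their shares of 75%, 61.9% and 64.7% depend less on list size. Of all protein-coding genes 61.3% were expressed. The loop and distal tubule, adrenal cortex, endothelial and hepatocyte lists hold no blue points.

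HOX genes, which record position along the body axis, were expressed from all 4 clusters. Expression was found for 11 of 11 HOXA, 9 of 10 HOXB, 8 of 9 HOXC and 6 of 9 HOXD genes. For HOXD this share (66.7%) was near that of all protein-coding genes, and 3 of its 9 genes reached 10 CPM. HOXB9, on chromosome 17, was the highest at 297, 301 and 289 TPM. The next were HOXA5 (111, 102 and 113 TPM) and HOXD13 (103, 105 and 117 TPM), whose ranges overlapped. HOXA9, HOXA10 and HOXC4 followed at 93 ± 6.1, 91.9 ± 4.5 and 84.6 ± 4.2 TPM, and the libraries of each overlapped those of the others. HOXD13 lies at the 5′ end of its cluster, and its neighbour HOXD12 was under the 12-count limit, with 0.323, 0 and 0.177 CPM. HOXD10 and HOXD9 were again high at 66.1 ± 5.4 and 59.1 ± 2.7 TPM. HOXB1, at the opposite end of the HOXB cluster, had no count, while HOXD1 had 1.41 ± 0.36 TPM. HOXD3, HOXD4 and HOXC5 were listed at 0.436, 0.849 and 0.621 CPM on average, and 92%, 80.5% and 59.9% of their principal transcripts are shared with another gene on the same strand.

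**Figure D3:**
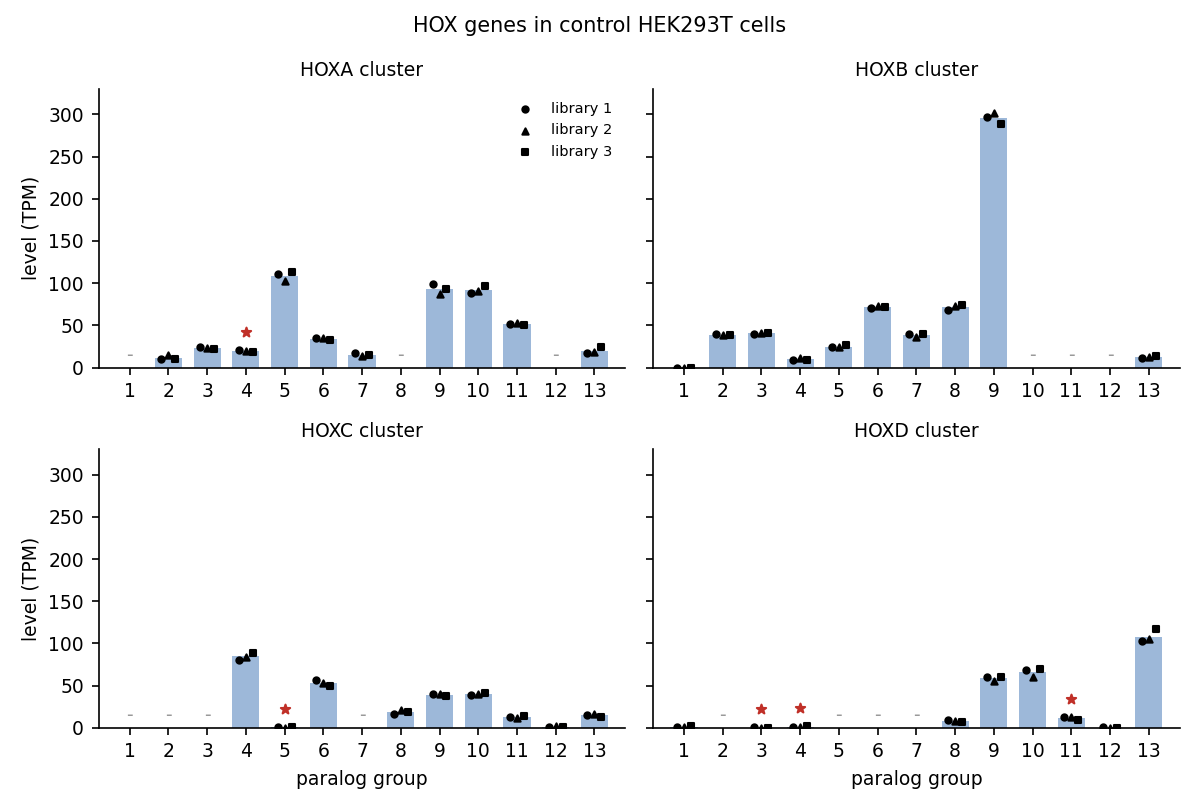
Level of each HOX gene in TPM by paralog group, with bars for the mean and points for the 3 control libraries. A red star marks genes sharing over 25% of their principal transcript on the same strand, and a dash marks paralog groups without a gene or not shown. HOXB9 has the tallest bar, and the HOXD cluster is high at groups 9, 10 and 13.

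All 11 listed cellular partners of the viral oncoproteins were expressed, each above 10 CPM. RB1, which the large T antigen binds, was at 19.5, 18 and 19.1 TPM, above its relative RBL1 at 10.4 ± 0.56 TPM. The phosphatase scaffold PPP2R1A, a partner of the small T antigen, had 119 ± 4.3 TPM. Cell-cycle genes were high in the same libraries, with PCNA at 425 ± 16 TPM, CCNB1 at 168 ± 3.6 TPM and CDK1 at 102 ± 1.7 TPM. CDKN2A, which encodes inhibitors of cell-cycle progression, had 341, 372 and 376 TPM. By contrast CDKN1C, another inhibitor, had 2.3 ± 0.54 TPM and CCND1, the D-type cyclin acting upstream of RB1, 5.65 ± 0.84 TPM. TERT, the telomerase catalytic subunit, had 3, 3.79 and 5.48 TPM. All 19 genes of this list were expressed, 15 of them above 10 CPM.

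Since the cells were transfected with an siRNA, the genes that sense and use small RNAs were described. All 13 genes of RNA interference were above 10 CPM. AGO2, the slicing Argonaute, had 15.4, 14.3 and 16.2 TPM, AGO1 had 12.8, 13.1 and 12.3 TPM, and AGO3 had 3.34 ± 0.39 TPM. The Dicer partners PRKRA and TARBP2 had 55.9 ± 6.9 and 43.5 ± 2.6 TPM. Of 20 genes that sense foreign nucleic acid 9 (45%) were expressed, against 61.3% of all protein-coding genes. CGAS, the cytosolic DNA sensor, had 0.484, 0.157 and 0 CPM, at or under the 12-count limit in every library, TMEM173, which encodes STING, had 2.58, 2.63 and 3.41 TPM, and OAS1, AIM2 and IFI16 had no count. No Toll-like receptor was expressed. The downstream adaptor MAVS had 21, 20.2 and 20.9 TPM and the transcription factor IRF3 had 101, 94.4 and 104 TPM. In the interferon list 9 of 14 genes (64.3%) were expressed, near the 61.3% of all protein-coding genes. The signalling genes were JAK1 at 48.2 ± 3.1, TYK2 at 54.1 ± 2.3 and STAT2 at 28 ± 1.7 TPM. Of the genes that interferon induces, ISG15 had 19.4 ± 2.8 TPM, IFIT1 4.11 ± 1.3 TPM and MX1 a mean of 0.0538 CPM. MX2 and the interferon gene IFNB1 had no count. IRF9 was listed at 3.81 ± 0.45 TPM with all of its principal transcript shared on the same strand.

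The listed genes of the SIN3 complex were all expressed. All 18 genes of the SIN3 and HDAC core list and all 7 of the list for the SIN3B type of complex were above 10 CPM, against 47.5% of all protein-coding genes. SIN3A (GRCh38 chr15:75369379-75455842, minus strand) had 42.9, 43.3 and 44.6 TPM. SIN3B (chr19:16829400-16880353, plus strand) had 40.1, 37.6 and 36 TPM. The 3 libraries of SIN3A were above those of SIN3B per principal transcript. Per base of the union of exons the ratio of SIN3A to SIN3B was 0.989, 1.07 and 1.15, a log2 ratio of 0.09 ± 0.11 (SD, n = 3), so the scaffolds did not differ by more than the spread between libraries on this scale. Per mean length of the coding transcripts the same counts gave a ratio of 2.23, and per principal transcript 1.15. The catalytic subunits HDAC1 and HDAC2 had 257 ± 8.3 and 70 ± 2 TPM. The histone chaperones RBBP7 and RBBP4 had 411 ± 8.6 and 92.7 ± 3.3 TPM. RBBP7 was 4.43-fold above RBBP4 per principal transcript but 1.67-fold above it per base of the union of exons. Among other listed subunits, SAP18 was at 77.6 ± 2.5, BRMS1 at 72 ± 3, SUDS3 at 43 ± 3, SAP130 at 42.8 ± 2.5 and SAP30 at 41.6 ± 5.3 TPM. ARID4A and ING1 were the lowest of the list, at 6.31 ± 0.4 and 7.65 ± 1.5 TPM. In the SIN3B type of complex, the paralogs MORF4L2 and MORF4L1 had 655 ± 36 and 365 ± 4.5 TPM. The reader PHF12 of this complex had 36.7 ± 1.9 TPM and its demethylase KDM5A 11.8 ± 0.78 TPM.

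Repressors that recruit SIN3 were expressed in 15 of 16 cases. MAX, the partner of the MXD family, had 121 ± 2.2 TPM. FOXK2 had 82.5, 76.1 and 82.9 TPM and its paralog FOXK1 had 11.1 ± 0.44 TPM. Among the MXD proteins MXD4 led at 52.2 ± 4.5 TPM, followed by MXI1 at 41.4 ± 5.5, MXD3 at 37 ± 2.1 and MXD1 at 6.06 ± 0.87 TPM. REST, which silences neuronal genes, had 6.96 ± 0.4 TPM. IKZF1, a lymphoid factor, was the member that was not expressed.

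The listed genes of other chromatin complexes were also nearly all expressed. All members were expressed in the lists for class I deacetylases, class II and IV deacetylases, sirtuins, NuRD, CoREST and NCoR, PRC2, PRC1, remodellers of the ISWI and INO80 type, acetyltransferases with BET proteins, histone methyltransferases, histone demethylases, and histone variants with chaperones. The exceptions in the remaining lists were ACTL6B, a neuronal subunit of SWI/SNF, STAG3, the cohesin subunit of meiosis, and DNMT3L, a cofactor of DNA methylation in germ cells, which had no count. List medians ran from 8.74 TPM for class II and IV deacetylases to 203 TPM for histone variants and chaperones, against 4.81 TPM for all protein-coding genes and 19.3 TPM for the expressed ones.

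Within these lists a few genes were far above the list medians. Outside the SIN3 lists, the highest per length were the histone variant H2AFZ (679, 684 and 696 TPM), the FACT subunit SSRP1 (568, 583 and 600 TPM), the arginine methyltransferase PRMT1 (475, 465 and 479 TPM) and TRIM28, the corepressor of KRAB zinc-finger proteins (424, 413 and 410 TPM). BRD2, a reader of acetylated histones, had 342 ± 13 TPM. HMG20B and KDM1A of the CoREST complex had 223 ± 7 and 165 ± 9.6 TPM, and PHF10 led the SWI/SNF list at 179 ± 8.7 TPM. EZH2, the catalytic subunit of PRC2, had 123 ± 1 TPM, while its partners EED and SUZ12 had 25.1 ± 1.4 and 24.6 ± 2.9 TPM. The maintenance methyltransferase DNMT1 had 125 ± 3.9 TPM and its cofactor UHRF1 52.3 ± 0.87 TPM. At the other end, the TET dioxygenases, which oxidise methylcytosine, had 2.74 to 6.21 TPM, and CHD5, a neuronal NuRD ATPase, had 0.582 ± 0.043 TPM.

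**Figure D4:**
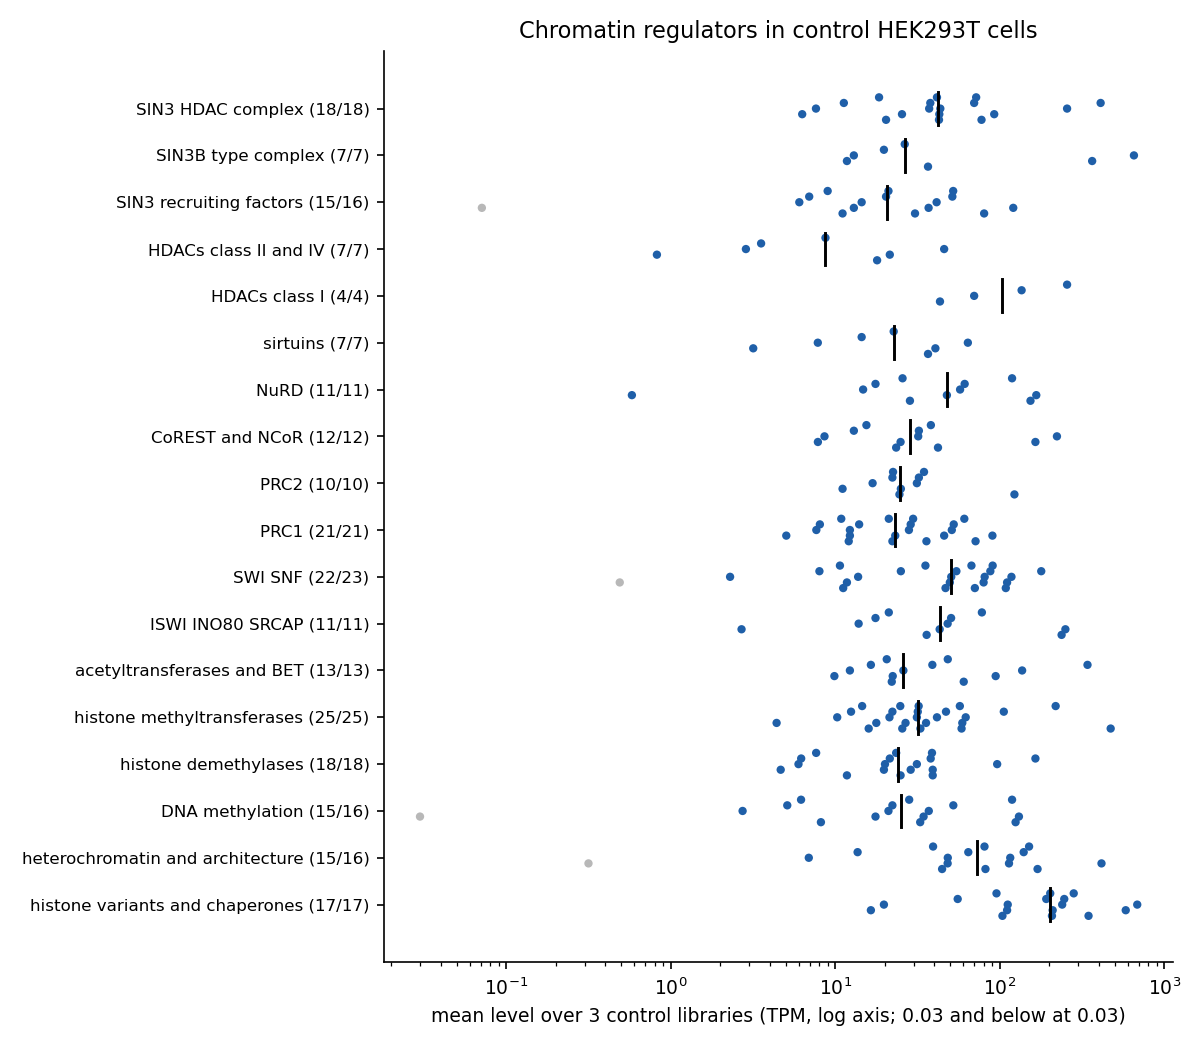
Mean level of each chromatin regulator over the 3 control libraries, in TPM on a log axis, by list. Blue points are expressed genes, grey points are not, black bars are list medians, and brackets give expressed genes over list size. Most points lie between 5 and 200 TPM, and 4 genes are grey.

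Paralogs were compared in 62 pairs, of which 61 had counts in every library for both genes. Ratios were taken within each library per base of the union of exons. In 43 pairs the ratio was at least 2-fold in either direction, and the SD between libraries was small, with a median of 0.09 and a maximum of 0.35 on the log2 scale. The definition of length moved the ratios more than the choice of library. Only 22 pairs were at least 2-fold apart in the same direction under each of 4 definitions of length (union of exons, principal transcript, longest transcript and mean coding transcript), and 18 of these had no gene sharing over 25% of its principal transcript on the same strand. In 12 pairs the direction changed with the definition.

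Several complexes had a clear leading paralog under all 4 definitions. BRD2 exceeded BRD3 by 12.7, 11.6 and 12.9-fold per exon length. SMARCA4, one of the alternative ATPases of SWI/SNF, exceeded SMARCA2 by 10.2, 12.5 and 10.1-fold, with 4.01 to 11.2-fold over the other definitions. MTA2 exceeded MTA3 by 11.9, 13 and 11.6-fold, with 3.5-fold per principal transcript. The acetyltransferase KAT2A exceeded KAT2B by 8.94, 10 and 8.74-fold and by 9.58-fold under each of the other definitions. PHC2, a Polycomb subunit, exceeded PHC3 by 9.48-fold, falling to 2.32-fold per mean coding transcript. In the opposite direction TGIF1 stood at 0.0842, 0.0674 and 0.0822 of TGIF2, and at 0.279 per principal transcript. FOXK1 stood at 0.226, 0.227 and 0.219 of FOXK2. Further pairs at least 2-fold apart under all 4 definitions included ARID1A over ARID1B (7.74-fold), KDM5C over KDM5A (6.36-fold), ASF1B over ASF1A (5.42-fold), BCOR over BCORL1 (3.4-fold), STAG2 over STAG1 (3.12-fold) and ARID4B over ARID4A (2.02-fold).

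Other pairs were close to equal per exon length. The 6 smallest ratios were those of SMARCA5 to SMARCA1, the ISWI ATPases, at 0.914, 1.01 and 0.955, SIN3A to SIN3B as given above, AGO1 to AGO2 at 0.889, 0.985 and 0.816, TET1 to TET3 at 0.852, 0.93 and 0.885, SMARCD1 to SMARCD2 at 0.788, 0.817 and 0.795, and the acetyltransferases EP300 to CREBBP at 1.28, 1.33 and 1.27. For SMARCA5 and SMARCA1 the libraries fell on both sides of 1. Per mean coding transcript AGO1 stood at 0.533 of AGO2 and TET1 at 0.599 of TET3. EP300 and CREBBP differed by more than the spread between libraries per exon length, but by 1.02-fold per mean coding transcript. HDAC1 and HDAC2 show how far a ratio can depend on the length: HDAC1 was 3.08-fold above HDAC2 per exon length, 3.67-fold above it per principal transcript, and at 0.894 of it per mean coding transcript. The direction also changed for KDM5A and KDM5B, RCOR1 and RCOR3, TBL1XR1 and TBL1X, RUVBL1 and RUVBL2, KMT2A and KMT2B, SUV39H1 and SUV39H2, EHMT1 and EHMT2, KDM2A and KDM2B, KDM3A and KDM3B, LMNB1 and LMNB2, and CBX1 and CBX3. ACTL6A had 54.6 TPM against 0.491 TPM for ACTL6B, for which replicate 1 had no count, so no mean ratio was formed.

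**Figure D5:**
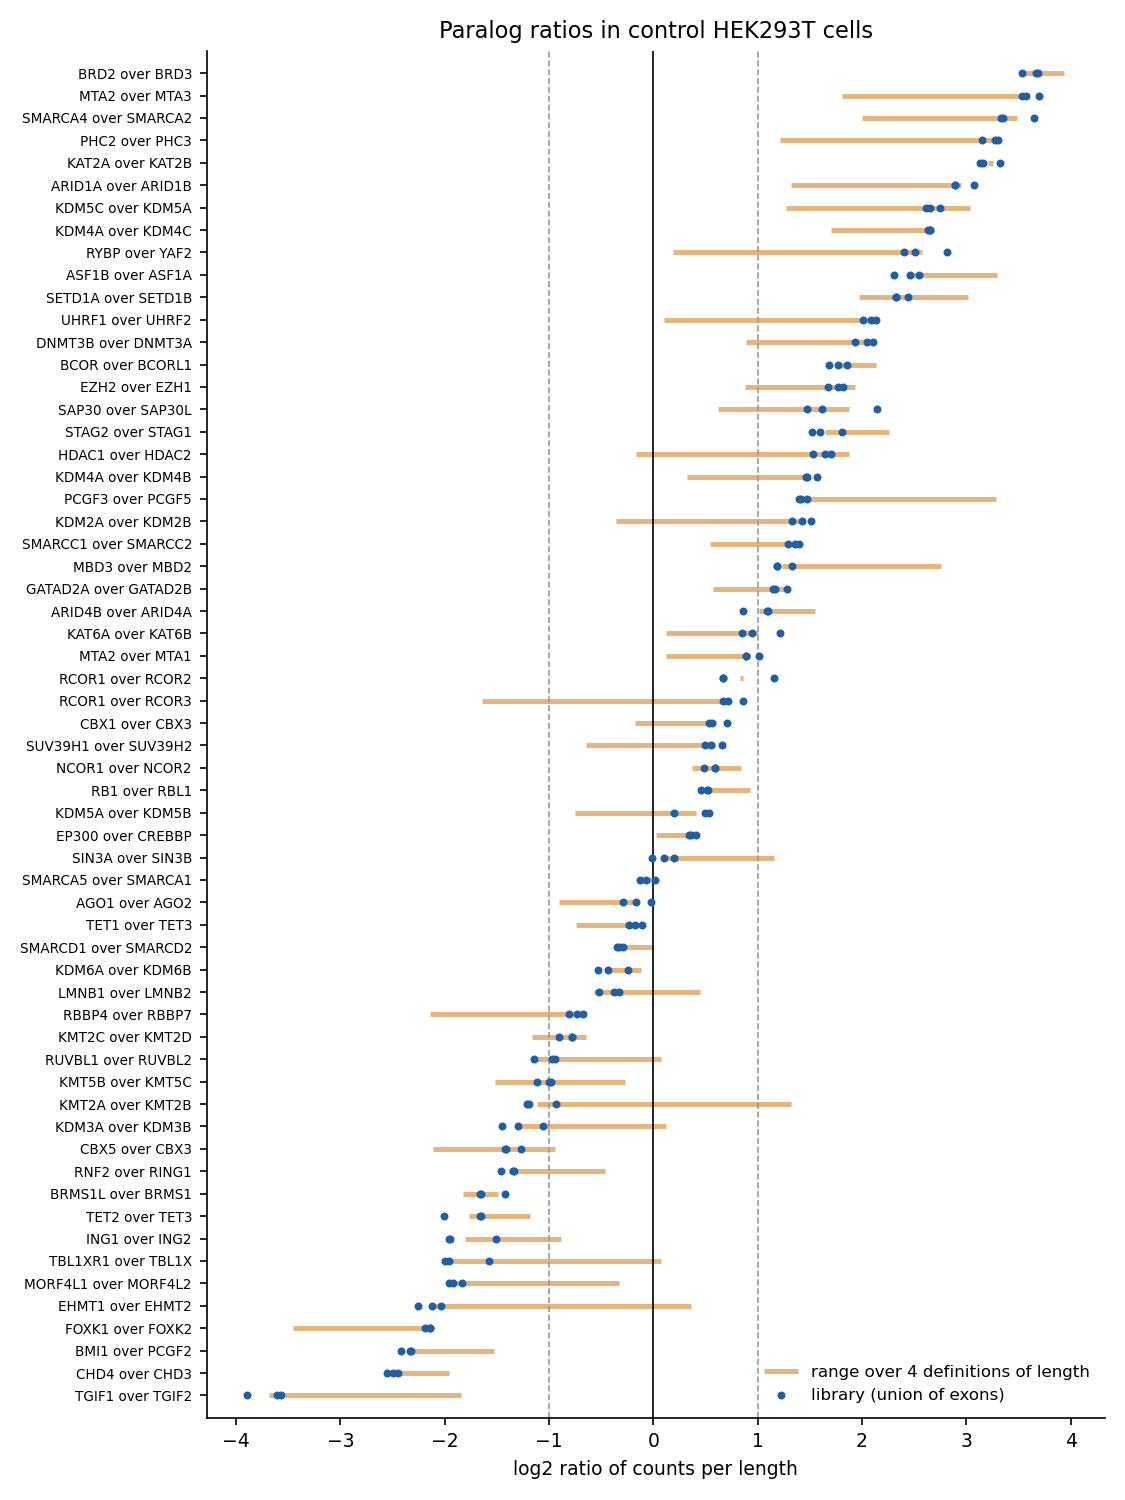
Log2 ratio of counts per length for the paralog pairs in control cells, leaving out 1 pair that is not shown. Blue points are the 3 libraries per base of the union of exons, orange bars span 4 definitions of length, and dashed lines mark 2-fold. The blue points lie close together within each pair, and the orange bars are wider than them for most pairs.

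Some low values belong to genes whose exons overlap another gene. Of 12790 protein-coding genes that share no exon base with another gene, 59.2% were expressed. Of 482 genes that share over 90% of their principal transcript with a gene on the same strand, 6.22% were expressed and 77.2% had no count. The share was 32.3% for 359 genes with 50 to 90% shared and 58.1% for 258 genes with 25 to 50% shared. Overlap on the opposite strand went with no such drop, as 65.7% of 213 genes with over 50% of the transcript overlapped were expressed. The levels of CHD4, SRCAP, GPS2, SMARCE1, HIRA, HDAC8 and HDAC10, whose principal transcripts are shared by 88.8%, 86.2%, 100%, 59.7%, 68.7%, 73.4% and 86.7% on the same strand, are therefore uncertain. Whether the counting or the cells set these values was not tested.

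Gene families of surface receptors, adhesion proteins and nuclear receptors were described next. All 11 genes of the frizzled family were expressed, led by SMO of the Hedgehog pathway at 48.8, 45.4 and 44.4 TPM and the Wnt receptor FZD2 at 21.3, 16.3 and 20.5 TPM. Ephrin receptors were expressed in 11 of 14 cases (78.6%), with EPHB4 at 43.8 ± 2.4 TPM. Integrins were expressed in 16 of 26 cases (61.5%), with ITGB1 at 50.3 ± 3.7 and ITGA5 at 28 ± 2.7 TPM. Collagens were expressed in 25 of 44 cases (56.8%), with COL6A1 at 82.1 ± 2.9 TPM. The integrin and collagen shares were near the 61.3% of all protein-coding genes. Nuclear receptors were expressed in 32 of 46 cases (69.6%). Among these, NR2F6, RXRB and NR2F2 had 47.7 ± 3.3, 46.5 ± 3 and 45.4 ± 0.69 TPM, which overlap.

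Receptors for transmitters were expressed in shares below the 61.3% of all protein-coding genes. Expression was found for 0 of 5 muscarinic, 0 of 8 metabotropic glutamate, 2 of 17 serotonin, 1 of 5 dopamine, 2 of 9 adrenergic, 2 of 4 opioid and 2 of 4 adenosine receptors. Of the receptor subunits 2 of 19 for GABA-A, 6 of 19 for ionotropic glutamate and 5 of 16 for nicotinic receptors were expressed. ADRA2C, an adrenergic receptor, had 15.8, 18.7 and 16 TPM, and ADORA2B, an adenosine receptor, had 17.5, 19.3 and 18.6 TPM. Of 18 chemokine receptors CXCR4 led, at 28.9, 24.1 and 33.2 TPM, and CCR10 was the only other one expressed. P2RY1, a purinergic receptor, had 3.62 ± 0.23 TPM. The nicotinic subunit CHRNA5 had 18.4 ± 0.67 TPM. Among channels, KCNG1 (23.7 ± 0.53 TPM) led 32 expressed of 96 potassium channel genes, CACNA1H (13.1 ± 1.7 TPM) led 5 of 9 calcium channel subunits, and 4 of 9 sodium channel subunits were expressed. Of 21 genes for connexins, the gap junction proteins, 5 were expressed, among them GJA1 (32.6 ± 2.7 TPM) and GJC1 (16.1 ± 1.6 TPM). Claudins, the sealing proteins of epithelial junctions, were expressed in 2 of 24 cases, CLDN15 at 31.6 ± 2.2 and CLDN12 at 22.2 ± 1.5 TPM.

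Among non-coding transcripts, hosts of small nucleolar RNAs were high. LRRC75A-AS1 had 548, 535 and 571 TPM, GAS5 had 322, 277 and 328 TPM and SNHG1 had 202, 171 and 192 TPM. Replicate 2 was the lowest library for each of these 3, but replicate 1 was the lowest for another host, SNHG16, at 69.2, 70.4 and 75.1 TPM. VPS9D1-AS1, an antisense gene, had 123 ± 11 TPM. TUG1 had 59.3 ± 3.5, NORAD 47.9 ± 3.3, NEAT1 15.6 ± 2.3 and MALAT1 13 ± 1.6 TPM. AL035425.3, annotated as overlapping on the same strand, had 716 CPM and 327, 263 and 272 TPM. Antisense genes were expressed in 450 of 5583 cases (8.06%) and long intergenic genes in 315 of 7629 (4.13%). Small RNAs are not captured by this kind of library, and 3 of 1879 miRNA genes passed 1 CPM.

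By nuclear chromosome, leaving out Y, the share of protein-coding genes expressed ran from 48.1% of 231 on chromosome 21 to 67.9% of 613 on chromosome 14. The next lowest share was 50.2% of 845 on chromosome X. Median levels of expressed genes on these nuclear chromosomes ran from 11.6 TPM on chromosome 4 to 34 TPM on chromosome 22. Chromosome 17 had the next highest median, 27.4 TPM.

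Among genes at or above 10 CPM, those that varied most between the control libraries were also listed. CSRNP1, an immediate-early transcription factor, had 22.9, 13.7 and 27.6 CPM, a coefficient of variation of 33.2%. FOSL2 of the AP-1 family had 15.8, 10 and 18.9 CPM. SLC7A11, the cystine transporter, had 25.6, 16 and 15.7 CPM. The other 7 of the 10 were KANTR, ZNF107, SNX24, OSBP2, PRSS30P, TXNDC16 and TMEM216, with coefficients of 26.2% to 33%. Replicate 2 was the lowest library for 22 of the 40 most variable genes (55%) and for 37.9% of all 9724 genes at or above 10 CPM. The 10 genes with the smallest coefficients were QRICH1, RNF10, CRYZ, ENTPD6, CD81, CTNND1, RECQL4, RNF138, DNAJA3 and LETMD1, at 0.0681% to 0.165%. By counting error alone, in steps of 4, the median coefficient was 9.33% for genes of 10 to 30 CPM and 3.37% for genes of 100 to 300 CPM. The smallest coefficients lie far below these values, so they do not mark genes that are steadier than others. Whether the largest exceed what counting error gives among so many genes was not tested.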

How the data were processed

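Poly-A RNA of HEK293T cells was sequenced, and the 3 control libraries were used here. Per the submitters' processing notes, the tools named were Trimmomatic 0.36, HISAT2 2.1.0, HTSeq and DESeq2 1.20.0, with the build GRCh38. The strand setting and the overlap mode of the counting are not given in the sources used here. The authors deposited read counts per gene, and these gave every level below. FPKM values deposited by the authors were not used for levels, because the gene length they imply had a Spearman correlation of 0.0107 with exon length over 8672 genes.

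Counts were divided by the library total (CPM). TPM used the principal transcript of each gene in GENCODE 29, and paralog ratios used the union of exons. The limit of detection was 3 steps of 4 counts per library and covers counting error only. Python 3.11.15, pandas 2.3.3, R 4.3.3, edgeR 4.0.16 and DESeq2 1.42.0 were used, and the scripts were tested on simulated data. DESeq2 1.42.0 gave alternative scalings only, and edgeR gave these and a dispersion estimate that is not reported here. There was 1 group, so no groups were tested against each other, and the only test was the chi-square comparison of library pairs. The members and the 45 lists (544 genes) were chosen with earlier results of these data known. Named genes were the 15 highest by CPM and per length, the 4 highest and up to 4 defining members of each list, any chromatin or HOX gene, paralog pairs, the 10 most and least variable genes, the 3 highest of each family and the 5 highest of each other biotype. MALAT1, NORAD and a few further genes were chosen after their values were seen. Alternatives were other expression thresholds, scalings, lengths and gene sets, and leaving out each library. Genes of chromosome Y, 1 long non-coding RNA and some further genes that the naming rule covers are not reported here.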

Additional observations from a re-analysis of the deposited data

How the results depend on the processing

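No paired analysis was possible because the description covers 1 group and makes no comparison between groups. The 13583 expressed genes became 23141 when any count in any library was enough, 14535 at 0.5 CPM and 12540 at 2 CPM, and stayed at 13583 with TMM or DESeq2 scaling. With 1 library left out the number was 13742 to 13791 for all genes and 12309 to 12333 for protein-coding genes. Leaving out genes that share over 25% of their transcript on the same strand, an alternative chosen after seeing the data, gave 11786 expressed protein-coding genes. The share of counts in the 100 highest genes fell from 23.7% to 16.7% without mitochondrial genes and was 23.5% to 23.9% with 1 library left out. The median coefficient of variation was 7.47% for genes above 1 CPM and 4.55% to 4.79% with 1 library left out. Of 544 list genes 395 were expressed, and 396 to 398 with 1 library left out. Pairs at least 2-fold apart numbered 43 per exon length, 36 per longest transcript, 35 per principal transcript (also chosen after seeing the data), 27 per mean coding transcript, 28 without length, and 41 to 42 with 1 library left out.

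Among the 43 pairs at least 2-fold apart per exon length, the direction reversed in 11 under another length or none, and the alternatives differ only in the length used. Per mean coding transcript the ratios became 0.894 for HDAC1 over HDAC2, 1.05 for TBL1XR1 over TBL1X, 2.5 for KMT2A over KMT2B, 1.28 for EHMT1 over EHMT2, 0.78 for KDM2A over KDM2B and 1.09 for KDM3A over KDM3B. Without length they became 0.79 for HDAC1 over HDAC2, 0.656 for SAP30 over SAP30L, 1.28 for ING1 over ING2, 1.41 for KMT2A over KMT2B, 0.996 for KDM4A over KDM4B and 1.25 for CBX5 over CBX3. Per principal transcript RUVBL1 over RUVBL2 became 1.05. Counts in steps of 4 limit the precision of low genes, and 3 libraries limit every SD.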

Other observations

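Some further families fell outside the groups above. Of 340 solute carriers 204 (60%) were expressed, near the 61.3% of all protein-coding genes. Zinc-finger genes were expressed in 391 of 514 cases (76.1%), and genes of mitochondrial ribosomal proteins in 77 of 78 (98.7%). Proteasome subunits were expressed in 34 of 40 cases (85%). Cytochromes P450 were expressed in 18 of 55 cases (32.7%), interleukin receptors in 16 of 42 (38.1%) and TRP channels in 11 of 29 (37.9%).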
